A study of Homo sapiens with 12 samples.

Results

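Senescent IMR-90 fibroblasts kept at 20% oxygen were compared with young, dividing IMR-90 fibroblasts kept at 3% oxygen, gene by gene, across 19775 genes. The comparison takes 6 of the 12 arrays of the series, chosen by their titles: 3 arrays of senescent cells (population doubling 48) and 3 arrays of young cells (population doubling 30). IMR-90 is a human fetal lung fibroblast line with a limited number of divisions in culture, and all arrays come from this 1 line, obtained at population doubling 27. The treatment named in the labels is growth at 3% oxygen, held with nitrogen gas; no gene was altered and no drug was added. Every group grew in DMEM with 10% fetal bovine serum and was collected at 80% confluency for TRIzol extraction. The remaining 6 arrays are of 2 groups, namely young cells at the same doubling 30 grown under 20% oxygen, and old, nonsenescent cells at doubling 53 grown under 3% oxygen; they serve here only as further reference points. Growth stage, number of doublings, oxygen level and incubator all differ between the senescent and the young 3% arrays, so their parts in any difference cannot be told apart. The labels call the replicates biological and say no more, so p-values measure the spread between these arrays, which may be partly technical.

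Values are on the log2 scale, and 0 is the middle of the 12 arrays for each probe set. Differences between groups can therefore be read and absolute levels cannot, so the absence of another cell type's markers could not be checked. A gene is called at an adjusted p under 0.05 (limma, Benjamini-Hochberg over all 19775 genes). A value given as a ± b is a log2 change with its standard error; each group has n = 3 arrays, and this number limits the precision. The actin (ACTB) control probe sets set young 3% replicate 2 apart: its 3′ minus 5′ difference was 0.71, against -0.22 to 0.35 on the other 11 arrays. Without that array 2124 genes were called in place of 2157. Leaving out single arrays of the comparison gave 1462 to 2124 calls, so this count is the highest of them. In the expression values young 3% replicate 1 stood out instead. It had the largest SD of deviation of the 12 arrays (0.209) and the lowest weight in the fit with array weights (0.37). Without young 3% replicate 1, 1595 genes were called.

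Cells that stop dividing for good while staying alive are called senescent. In cultured fibroblasts the arrest is held mainly by the cyclin-dependent kinase inhibitors p21 (CDKN1A) and p16 (CDKN2A), which keep the RB family of repressors active on the promoters of cell cycle genes. Genes of DNA replication are classically bound through E2F sites, and genes of mitosis through a CHR element that often lies next to a CCAAT box. Senescent fibroblasts are also known for secreting cytokines, growth factors and matrix-degrading proteases, for losing lamin B1, and for an enlarged lysosomal compartment.

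The promoters below belong to the genes that fell furthest among the mitosis genes holding both motifs named here and among the DNA replication genes holding an E2F word. They are shown because these 2 lists had the lowest medians of all lists. The sequences are from RefSeq (GRCh38.p14), read 5′ to 3′ on the strand of the gene and ending at the base before its start. Capitals mark the CHR element (TTTGAA) and the CCAAT box in KIF11 and PRC1, and E2F words in DTL and MCM6, on either strand. KIF11, at chr10:92593010-92593129 on the plus strand, encodes the motor that pushes spindle poles apart. PRC1, at chr15:90994536-90994655 on the minus strand, bundles the microtubules of the spindle midzone. DTL, at chr1:212035628-212035747 on the plus strand, is the substrate receptor of a ubiquitin ligase that destroys licensing factors during S phase. MCM6, at chr2:135876444-135876605 on the minus strand, is a subunit of the replicative helicase.
KIF11: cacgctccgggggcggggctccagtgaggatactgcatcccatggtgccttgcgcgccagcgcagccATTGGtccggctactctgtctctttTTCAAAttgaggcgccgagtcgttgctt
PRC1: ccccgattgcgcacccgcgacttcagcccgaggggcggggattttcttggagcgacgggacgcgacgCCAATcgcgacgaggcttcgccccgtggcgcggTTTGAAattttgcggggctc
DTL: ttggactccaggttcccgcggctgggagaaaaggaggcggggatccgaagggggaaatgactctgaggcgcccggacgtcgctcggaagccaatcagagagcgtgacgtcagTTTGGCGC
MCM6: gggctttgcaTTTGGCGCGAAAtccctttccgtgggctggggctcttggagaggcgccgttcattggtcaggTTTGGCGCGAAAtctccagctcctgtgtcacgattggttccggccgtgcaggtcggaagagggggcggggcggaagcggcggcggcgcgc
In the 250 bases before the start, 30 of 59 mitosis promoters (50.8%) held TTTGAA, against 10.6% of the 15384 promoters of genes tested. A CCAAT box stood in 71.2% of mitosis promoters and in 34.1% of all promoters of tested genes, and both motifs together in 42.4% and 4.0%. The E2F words (TTTGGCGC, TTTCGCGC, TTTCCCGC or TTTGCCGC; neighbouring words may overlap, as in MCM6) stood in 15 of 51 DNA replication promoters (29.4%) and in 3.6% of those of tested genes. These matches describe the letters of the windows and not the binding of a factor.

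Of the 19775 genes, 2157 differed between senescent cells at 20% oxygen and young cells at 3% oxygen (10.9%), 1029 of them higher (5.2%) and 1128 lower (5.7%) in the senescent cells. Changes of at least 2-fold were called for 127 genes that were higher (0.642%) and 282 that were lower (1.43%). The median log2 change over all genes was 0.05. Without senescent replicate 2 the number of genes called higher dropped to 638. The 15 largest falls held genes of cell division (KIF18B, NDC80, BUB1B, KIF11, PBK), prostaglandin synthesis (PTGS2, PTGIS) and the chromatin enzyme EZH2. The 15 largest rises held the matrix proteases MMP1 and ADAMTS1, the kinase inhibitor CDKN1A, and the histone genes H2AC6 and H2BC21.

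**Figure D1:**
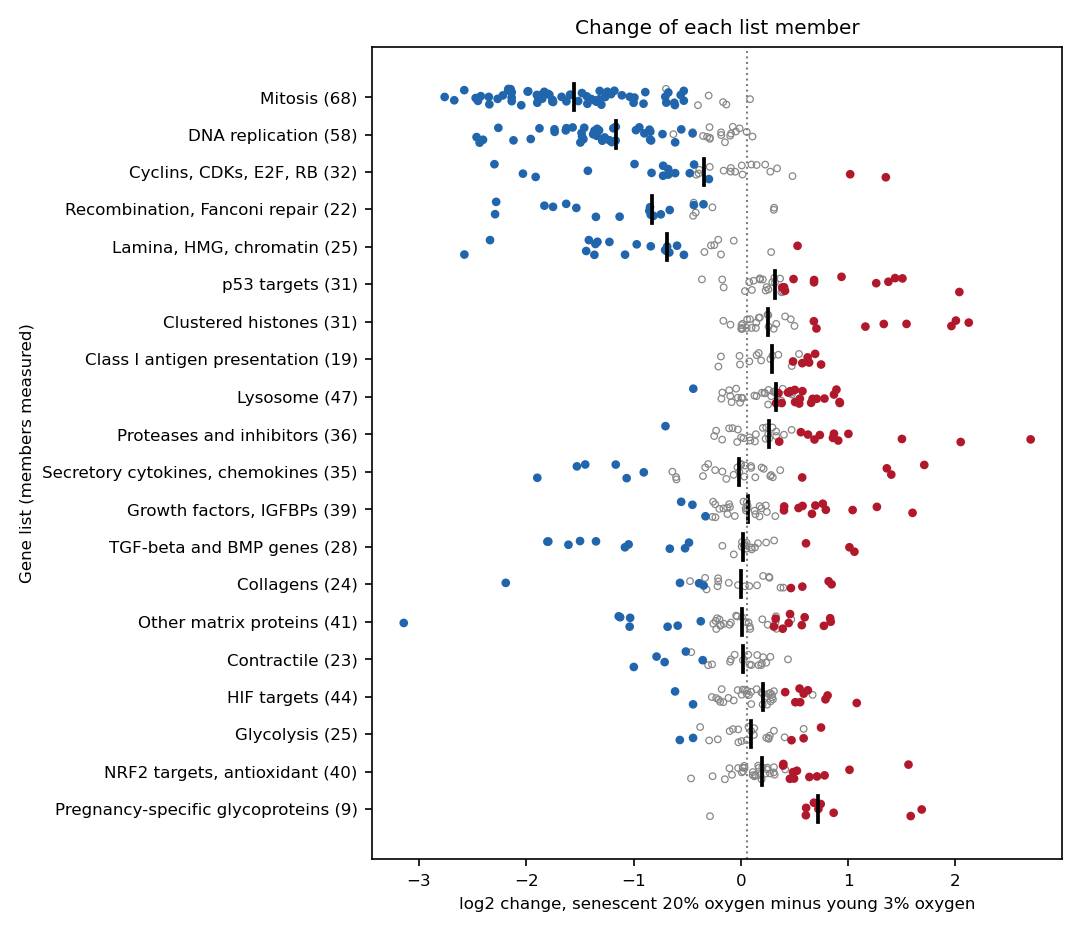
Log2 change (senescent 20% oxygen minus young 3% oxygen, horizontal axis) of every measured member of 20 gene lists, 1 point per gene, with members called lower in blue, called higher in red and not called as open grey circles; black bars are list medians and the dotted line is the median of all genes, 0.05. The mitosis list lies almost wholly to the left, with a median of -1.55, and the pregnancy-specific glycoproteins to the right, with a median of 0.72.

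Genes of mitosis were lower in the senescent cells almost throughout. Of 68 measured genes of the spindle, the kinetochore and cytokinesis, 62 fell (91.2%, beside 5.7% of all genes) and none rose. At least 2-fold falls were called for 50 of them, and the median log2 change was -1.55 beside 0.05 over all genes. NDC80, a kinetochore protein that grips microtubules, stood at -1.20, -1.59 and -1.57 on the senescent arrays and at 1.20, 1.44 and 1.29 on the young 3% arrays. The groups lay far apart, and NDC80 fell by 2.76 ± 0.16 on the log2 scale (6.77-fold lower, adjusted p = 3.57e-07). BUB1B, which holds back chromosome separation until all kinetochores are attached, stood at -1.07, -2.09 and -1.47 on the senescent arrays and at 1.07, 1.19 and 1.12 on the young arrays. Senescent replicate 2 was the lowest of these, and the change was -2.67 ± 0.20. KIF11, whose promoter is printed above, had values of -1.29, -1.66 and -1.76 in senescent and 0.97, 1.08 and 0.98 in young cells. No array of 1 group came near the other, and KIF11 was 5.97-fold lower (adjusted p = 1.14e-07). PRC1 was at -1.18, -1.37 and -1.17 against 1.25, 1.21 and 1.17, a change of -2.45 ± 0.12.

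The textbook markers of dividing cells behaved alike. CDK1, the kinase that drives entry into mitosis, changed by -1.90 ± 0.13, and its partner cyclin B1 (CCNB1) by -2.17 ± 0.11. Cyclin A2 (CCNA2) changed by -1.91 ± 0.12 and TOP2A, the topoisomerase that untangles sister chromosomes, by -1.78 ± 0.13, with probe sets at -0.54, -2.23 and -2.58. For MKI67, the proliferation antigen Ki-67, the mean over probe sets was -1.48 ± 0.14, while its 4 probe sets ranged from -0.42 to -1.99. KIF18B, a microtubule-shortening kinesin outside the fixed list, stood at -2.14, -1.97 and -2.36 in senescent cells and at 1.16, 0.92 and 1.04 in young cells, and was 9.16-fold lower. Among the 6 list members that were not called was the mitotic kinase PLK1, at -0.26, 0.07 and -0.53 in senescent and 0.32, -0.18 and 0.33 in young cells. Its arrays overlapped between the groups, and the change was -0.40 ± 0.25 (adjusted p = 0.34). In bulk RNA, fewer dividing cells and less of these transcripts in each cell cannot be told apart.

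DNA replication genes followed the same direction with somewhat smaller changes. Of 58 measured genes, 41 fell (70.7%, beside 5.7% of all genes) and none rose, and the median was -1.17. RRM2, the regulated subunit of ribonucleotide reductase, stood at -1.28, -1.66 and -1.65 on the senescent and at 0.97, 0.84 and 0.90 on the young arrays, a fall of 5.41-fold (adjusted p = 1.14e-07). CDC7, a kinase that fires replication origins, changed by -2.40 ± 0.09, POLE2, a subunit of polymerase epsilon, by -2.46 ± 0.20, and geminin (GMNN), the inhibitor of origin licensing, by -2.26 ± 0.10. MCM6 was at -0.98, -1.19 and -1.16 in senescent cells and at 0.79, 0.76 and 0.75 in young cells. The 3 young arrays hardly differed among themselves, and MCM6 was 3.67-fold lower (adjusted p = 5.92e-07). DTL was at -1.06, -1.28 and -0.97 against 1.11, 0.68 and 0.78, a change of -1.96 ± 0.15, with probe sets at -1.30 and -2.62. Genes of homologous recombination and of the Fanconi pathway, which repair broken and crosslinked DNA, were lower in 16 of 22 cases (72.7%). None was higher, and the median was -0.83. Among them the exonuclease EXO1 fell 4.86-fold.

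**Figure D2:**
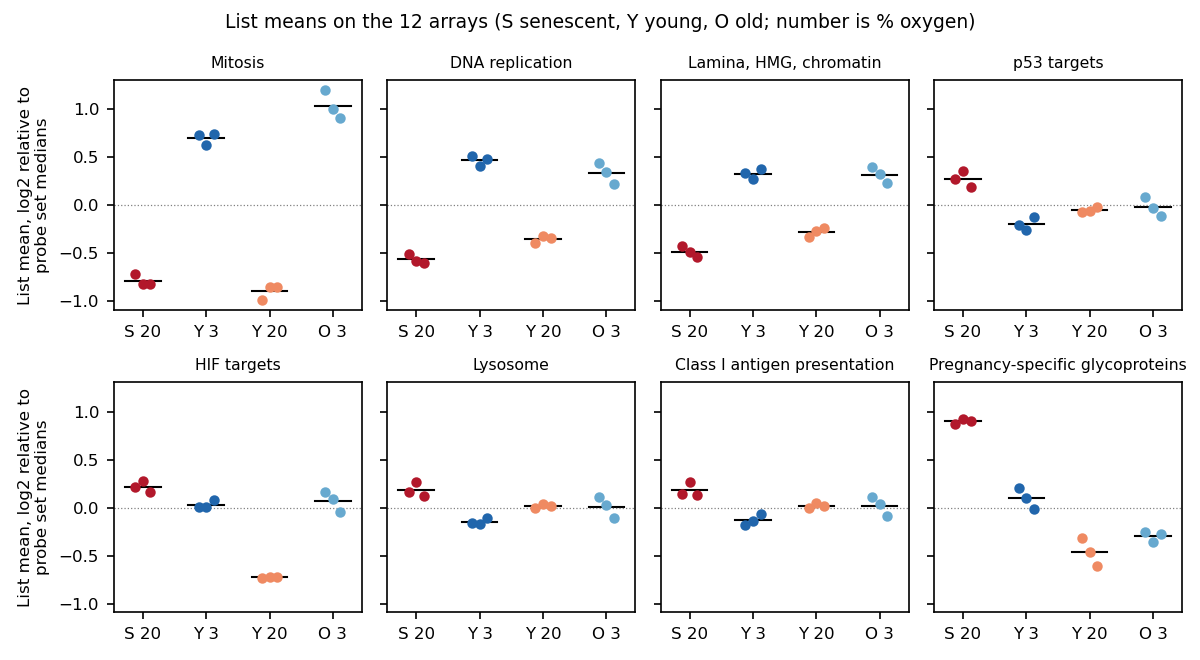
Mean log2 value of 8 gene lists on each of the 12 arrays (points) with the group mean (line), for senescent cells at 20% oxygen (S 20), young cells at 3% (Y 3), young cells at 20% (Y 20) and old cells at 3% oxygen (O 3). Mitosis genes average -0.78 in senescent, 0.70 in young 3%, -0.89 in young 20% and 1.04 in old 3% cells, while the glycoprotein list is highest in the senescent cells at 0.90.

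The regulators of the cell cycle split. Of 32 cyclins, cyclin-dependent kinases, E2F and RB family genes, 14 fell (43.75%, beside 5.7% of all genes). Another 2 rose (6.25%, near the 5.2% of all genes), and the median was -0.34. FOXM1, the transcription factor of late cell cycle genes, fell 4.91-fold, and FBXO5, an inhibitor of the anaphase-promoting complex, fell 4.09-fold. The activator E2F1 stood at -0.13, -0.10 and -0.29 in senescent cells and at 0.60, 0.91 and 0.95 in young cells, a change of -0.99 ± 0.12. The 2 members that rose were both D-type cyclins, the partners of CDK4 and CDK6. CCND1 stood at 0.64, 1.09 and 0.70 against -0.16, -0.39 and -0.07, a rise of 2.03-fold (adjusted p = 0.000817). CCND2 rose 2.55-fold, with its 4 probe sets at 2.36, 2.21, 0.55 and 0.28.

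Among 7 measured inhibitors of cyclin-dependent kinases 3 rose (42.9%, beside 5.2% of all genes) and 1 fell (14.3%, beside 5.7%). CDKN1A (p21) stood at 1.64, 1.73 and 1.75 on the senescent arrays and at -0.19, -0.49 and -0.30 on the young arrays. All senescent arrays also lay above the 6 arrays of the other 2 groups, which ran from -0.16 to 0.22, and p21 was 4.1-fold higher than in young 3% cells (2.04 ± 0.11, adjusted p = 1.46e-07). CDKN2A, the gene of p16 and ARF, was at 0.65, 0.65 and 0.59 against -0.53, -0.40 and -0.20 and rose 2.01-fold (adjusted p = 0.00023). Of its 3 probe sets 2 gave 1.68 and 1.28 and the other gave 0.07, and which transcript each reads was not analysed here. CDKN2B (p15) rose by 0.84 ± 0.10 with probe sets at 1.44 and 0.24. Against young 20% cells CDKN2B was lower (-0.32, adjusted p = 0.0473) and CDKN2A higher (0.47, adjusted p = 0.0348). Both were called higher in young 20% than in young 3% cells, CDKN2B by 1.16 and CDKN2A by 0.54. CDKN3, listed with the inhibitors for its name, is a phosphatase expressed in dividing cells, and it fell 4.43-fold.

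Targets of the p53 protein, the factor that induces p21 after DNA damage, rose in 12 of 31 cases (38.7%, beside 5.2% of all genes). None fell, and the median was 0.32. The ribonucleotide reductase subunit RRM2B rose by 1.51 ± 0.10, the kinase PLK2 by 1.44 ± 0.08, SPATA18, a regulator of mitochondrial quality, by 1.37 ± 0.11 (probe sets at 2.45 and 0.30), and ZMAT3, an RNA-binding protein, by 1.26 ± 0.11. The stress cytokine GDF15 stood at 0.28, 0.89 and 0.20 in senescent and at -0.79, -0.56 and -0.10 in young cells. The groups did not overlap, but the nearest arrays were only 0.20 and -0.10, and the change was 0.94 ± 0.20 (adjusted p = 0.00815). MDM2, the ubiquitin ligase that degrades p53, was not called at 0.18 ± 0.08 (adjusted p = 0.212).

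Proteins of the nuclear lamina and of chromatin were mostly lower: 17 of 25 fell (68%, beside 5.7% of all genes). A rise was called for 1 (4%, near the 5.2% of all genes), and the median was -0.69. LMNB1, the gene of lamin B1, stood at -1.23, -1.60 and -1.50 in senescent cells and at 0.72, 0.87 and 1.08 in young cells. The ranges were far apart, and lamin B1 was 5.05-fold lower (adjusted p = 1.14e-07). EZH2, the methyltransferase of Polycomb repressive complex 2, was at -1.88, -1.83 and -1.94 against 0.66, 0.59 and 0.83. Replicates differed little beside this gap, and EZH2 was 5.96-fold lower (adjusted p = 1.14e-07). DNMT1, which copies DNA methylation after replication, fell 2.56-fold and the DNA-bending protein HMGB3 2.72-fold. HMGB2 fell by 0.53 on the log2 scale, but its 2 probe sets gave 0.44 and -1.50, and the call was lost without senescent replicate 1 (adjusted p = 0.0522) and without young 3% replicate 3 (adjusted p = 0.0505). The 1 member that rose, HMGA2, changed by 0.53 ± 0.13 and was not called without senescent replicate 1 or 2 or young 3% replicate 2.

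Histone genes of the clusters, whose transcripts normally end in a stem-loop without a poly(A) tail and peak in S phase, did not follow the other S phase genes. Of 31 measured, 8 rose (25.8%, beside 5.2% of all genes) and none fell. The median was 0.25, which became 0.14 without senescent replicate 2 or with quantile normalization and 0.09 with array weights. H2AC6 stood at 1.61, 1.59 and 1.61 in senescent cells and at -0.45, -0.60 and -0.51 in young cells, a 4.36-fold rise with hardly any spread among the senescent arrays. H2BC21 rose by 2.00 ± 0.17, H2BC12 by 1.96 ± 0.21 and H2BC5 by 1.54 ± 0.19. Against young 20% cells only 1 of the 31, H2AC6, was called higher (beside 4.67% of all genes). H2BC21 was not called there (0.48, adjusted p = 0.0953). These genes are close relatives whose probe sets may read one another, so the assignment to single genes is uncertain.

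Secreted signalling proteins moved both ways. Of 35 cytokines and chemokines ascribed to senescent cells, 4 rose (11.4%, beside 5.2% of all genes) and 6 fell (17.1%, beside 5.7%). The median was -0.01. The interleukins IL6 and CXCL8 (interleukin 8), the best known of these, were lower in the senescent cells. IL6 stood at -1.04, -1.26 and -1.35 in senescent and at -0.01, -0.41 and -0.03 in young cells, a 2.09-fold fall (adjusted p = 8.15e-05). CXCL8 was at -1.32, -1.50 and -1.49 against -0.72, -0.49 and -0.39. The gap was smaller and the change was -0.90 ± 0.11, but its 2 probe sets gave 0.03 and -1.84. IL1B, the secreted interleukin 1 beta, fell 3.72-fold, the chemokine CXCL12 2.88-fold and IL11, a cytokine of the IL6 family, 2.73-fold. TNFAIP6, a hyaluronan-binding protein, fell 2.24-fold, with probe sets at -0.11 and -2.22. IL1A was not called (-0.60 ± 0.23, adjusted p = 0.124).

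The 4 that rose were TSLP, PTX3, CCL2 and STC1. TSLP, a cytokine that acts on dendritic cells, stood at 0.73, 0.98 and 0.56 in senescent and at -0.96, -0.99 and -0.91 in young 3% cells. It was 3.27-fold higher than in these, yet still below the young cells at 20% oxygen, whose arrays read 2.11, 1.99 and 2.16. PTX3, a soluble pattern recognition protein, and CCL2, which attracts monocytes, were placed in the same way. PTX3 rose 2.64-fold and CCL2 2.57-fold over young 3% cells, and their lowest young 20% arrays read 2.74 and 1.97 against highest senescent arrays of 0.77 and 0.70. The hormone-like glycoprotein STC1 rose 1.49-fold.

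Matrix proteases and their inhibitors were higher in 12 of 36 cases (33.3%, beside 5.2% of all genes) and lower in 1 (2.78%, beside 5.7%). The median was 0.26. MMP1, the interstitial collagenase, stood at 1.79, 1.84 and 1.84 in senescent cells and at -0.87, -1.08 and -0.68 in young cells. The senescent arrays were also above all 6 arrays of the other groups, which reached 0.08 at most, and the rise was 6.5-fold (2.70 ± 0.12, adjusted p = 3.75e-08). MMP3 (stromelysin) rose 2.83-fold, the aggrecanase ADAMTS1 4.14-fold and SERPINE2, an inhibitor of thrombin, 2-fold. ADAMTS1 was not called between senescent and young 20% cells (-0.10, adjusted p = 0.795). The young 20% cells were themselves 2.15 above the young 3% cells in this gene. The collagenase inhibitor TIMP1 rose by 0.74 ± 0.09, and TIMP3, its matrix-bound relative, was the 1 member that fell (-0.70 ± 0.09).

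Of 39 growth factors, their receptors and insulin-like growth factor binding proteins, 11 rose (28.2%, beside 5.2% of all genes). Another 3 fell (7.69%, near the 5.7% of all genes), and the median was 0.06. IGFBP2 rose 3.03-fold, IGFBP5 2.41-fold and the hepatocyte growth factor HGF 2.06-fold. IGFBP7 rose by 0.40 ± 0.08, with probe sets at 0.78, 0.66 and -0.23, and IGFBP3 was not called (-0.24 ± 0.09, adjusted p = 0.126). The receptor PDGFRB rose 1.73-fold. Without senescent replicate 1, young 3% replicate 1 or young 3% replicate 3 the 3 falls became 1.

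The TGF-beta and BMP list held 10 falls (35.7%, beside 5.7% of all genes) and 3 rises (10.7%, beside 5.2%) among 28 genes. The median was 0.02. All 4 inhibitors of DNA binding, the ID proteins that BMP signals induce, fell. ID1 changed by -1.80 ± 0.28, ID4 by -1.79 ± 0.09 (3 of its 5 probe sets lay between -2.86 and -3.21, the others at 0.16 and 0.06), ID3 by -1.61 ± 0.14 and ID2 by -1.08 ± 0.11. The BMP antagonist NOG and the activin antagonist FST changed by -1.35 ± 0.21 and -1.50 ± 0.10, and SMAD7, the feedback inhibitor of the pathway, by -1.05 ± 0.15. Among the ligands, TGFB2 rose 2.08-fold, with 1 of 5 probe sets at -0.09, and BMP2 rose 2.02-fold, with probe sets at 1.70 and 0.32. In the Wnt and Notch list 6 of 29 rose (20.7%) and 1 fell (3.45%, beside 5.7% of all genes). WNT5B rose by 1.13 ± 0.11 and DKK3 by 0.70 ± 0.10, while the Wnt antagonist DKK1 changed by -0.60 ± 0.10.

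Of 17 genes of prostaglandin synthesis and signalling 4 fell (23.5%, beside 5.7% of all genes). A rise was called for 1 (5.88%, near the 5.2% of all genes), and the median was -0.10. PTGS2 (cyclooxygenase 2), which makes the common precursor, stood at -1.90, -2.79 and -1.95 in senescent and at 1.11, 0.83 and 0.90 in young cells. The groups were clearly apart and PTGS2 was 8.94-fold lower (adjusted p = 4.3e-07). PTGIS, which makes prostacyclin, changed by -2.70 ± 0.09, a mean of probe sets at -7.55, -0.38 and -0.16, so its size rests on 1 of 3 probe sets. PTGS1 fell 1.47-fold, and the prostaglandin E2 receptor PTGER4 rose 2.75-fold, with probe sets at 2.59 and 0.33. Of 29 immediate-early genes, which respond to serum within minutes, 7 fell (24.1%) and 3 rose (10.3%). PTGS2 belongs to this list too, NR4A2 changed by -1.35 ± 0.16, and the ERK phosphatases DUSP6 and DUSP5 rose 2.34-fold and 2.02-fold.

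Matrix genes changed singly and without a common direction. Of 24 collagens 4 rose and 4 fell (16.7% each way, beside 5.2% and 5.7% of all genes), with a median of 0.01. COL11A1 fell 4.57-fold, COL3A1, a main interstitial collagen, fell by 0.57 on the log2 scale, and COL18A1 rose 1.8-fold. COL1A1 overlapped between the groups at -0.03, 0.13 and 0.00 against -0.20, 0.11 and -0.05, a change of 0.08 with a 95% confidence interval from -0.13 to 0.29. Without senescent replicate 1 or 2, or without young 3% replicate 2, only 2 collagens were called lower. Of 41 other matrix proteins 10 rose (24.4%) and 8 fell (19.5%). The largest fall was that of CTHRC1, a secreted protein of injured and remodelling tissue, at -3.24, -3.32 and -3.19 in senescent and at -0.21, 0.01 and -0.13 in young cells. The other 6 arrays lay between -0.01 and 0.47, so the senescent cells alone were low, and the fall was 8.82-fold (adjusted p = 7.8e-10). The proteoglycan VCAN fell 2.2-fold, elastin (ELN) 2.18-fold (probe sets at 0.12 and -2.37) and thrombospondin 2 (THBS2) 2.05-fold, while thrombospondin 1 (THBS1) rose 1.79-fold. The 10 rises became 6, 5 and 6 without senescent replicate 1, 2 and 3. Enzymes that modify collagen rose in 6 of 21 cases (28.6%) and fell in 2 (9.52%). The crosslinking enzymes LOXL3 and LOXL4 rose 2.91-fold and 1.76-fold, LOXL4 with probe sets at 1.65 and -0.02. The 2 falls became 1 without senescent replicate 2 or 3 or young 3% replicate 1, and 0 without any 1 of the other 3 arrays. Contractile genes fell in 5 of 23 cases (21.7%) and rose in none. Cardiac actin (ACTC1) changed by -0.71 ± 0.16, and the smooth muscle genes ACTA2 (-0.31 ± 0.11, adjusted p = 0.117) and TAGLN (-0.09 ± 0.12, adjusted p = 0.658) were not called.

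Targets of the hypoxia-inducible factors (HIF), which accumulate when oxygen is low, were not lower in the senescent cells although these grew at the higher oxygen level. Of 44 measured targets 9 rose (20.5%, beside 5.2% of all genes) and 2 fell (4.55%, near the 5.7% of all genes). The median was 0.20. The list mean was 0.22, 0.28 and 0.16 on the senescent arrays, 0.01, 0.01 and 0.08 on the young 3% arrays, and -0.73, -0.73 and -0.72 on the young 20% arrays. The senescent arrays lay slightly above the young 3% arrays without overlap, and the young cells at 20% oxygen far below both. ENO2, the neuronal-type enolase, stood at 0.67, 0.67 and 0.66 in senescent and at -0.18, 0.29 and 0.13 in young 3% cells, a rise of 1.5-fold (adjusted p = 0.00384). FAM162A, a mitochondrial protein, rose 1.75-fold and CITED2, a negative regulator of HIF, 1.73-fold. The glucose transporter SLC2A1 overlapped between the groups, with a change of 0.10 and a 95% confidence interval from -0.12 to 0.31. BNIP3, a mitophagy receptor (0.29 ± 0.10, adjusted p = 0.0802), ADM (0.24 ± 0.09, adjusted p = 0.126) and VEGFA (-0.16 ± 0.11, adjusted p = 0.403) were not called. DDIT4, an inhibitor of mTORC1, fell by 0.61 on the log2 scale (adjusted p = 0.0186), a call that was lost without senescent replicate 1 (adjusted p = 0.0852), senescent replicate 2 (0.0514) or young 3% replicate 3 (0.0647). ANGPTL4, at 1.08 ± 0.29, likewise lost its call without senescent replicate 1 (adjusted p = 0.0802), senescent replicate 2 (0.123) or young 3% replicate 1 (0.113). Of 25 glycolysis genes 3 rose (12%) and 2 fell (8%, near the 5.7% of all genes), with a median of 0.10. Among them were ALDOC (1.68-fold higher) and PKM, the last kinase of the pathway (1.48-fold lower).

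Antioxidant genes, many of them targets of the factor NRF2, rose in 11 of 40 cases (27.5%, beside 5.2% of all genes). None fell, and the median was 0.20. TXNIP, the inhibitor of thioredoxin, rose 2.95-fold, the cystine transporter SLC7A11 2.02-fold and the peroxiredoxins PRDX4 and PRDX6 1.72-fold and 1.56-fold. Mitochondrial superoxide dismutase (SOD2) stood at 0.22, 0.19 and 0.25 in senescent and at -0.62, -0.40 and -0.44 in young 3% cells, a 1.64-fold rise. The classical NRF2 targets NQO1 and HMOX1 overlapped between the groups, with changes of 0.02 ± 0.13 and -0.15 ± 0.10. Without senescent replicate 1, senescent replicate 2 or young 3% replicate 2 the 11 rises became 7. Against young 20% cells 6 of the 40 were higher and 8 lower (beside 4.67% and 7.84% of all genes), with a median of -0.03. In young 20% minus young 3% cells 12 were higher (beside 6.84% of all genes) and 0 lower. Of 45 genes of oxidative phosphorylation 4 rose (8.89%, beside 5.2% of all genes) and none fell, and the 4 became 2 without senescent replicate 1, senescent replicate 3 or young 3% replicate 2. Of 9 metallothioneins, small metal-binding proteins whose sequences are near copies of each other, 5 rose (55.6%). The 5 became 3, 2, 2 and 3 without senescent replicates 1, 2 and 3 and young 3% replicate 1. Cholesterol and fatty acid synthesis held 6 rises among 26 genes (23.1%) and no fall, with MSMO1 up 2.89-fold and HMG-CoA synthase (HMGCS1) 1.83-fold. Against young 20% cells 0 of these 26 were higher and 5 lower (beside 4.67% and 7.84% of all genes), with a median of -0.15. In young 20% minus young 3% cells 8 were higher (beside 6.84% of all genes) and 0 lower. Heat shock genes held 4 falls (19.0%, beside 5.7% of all genes) and 1 rise among 21 (4.76%, near the share of all genes), the chaperone DNAJB4 rising 3.29-fold. Of 38 genes of the unfolded protein response 2 rose and 2 fell (5.26% each way, near the shares of all genes), PHGDH, the first enzyme of serine synthesis, changing by -0.55 ± 0.10. The 2 rises became 1 without senescent replicate 1, senescent replicate 2 or young 3% replicate 2, and the 2 falls became 4 without the last of these.

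Of 47 lysosomal genes, 18 rose (38.3%, beside 5.2% of all genes), 1 fell and 28 were not called. None changed by as much as 2-fold, and the median was 0.33. The list mean was 0.16, 0.26 and 0.12 on the senescent and -0.16, -0.17 and -0.11 on the young 3% arrays, without overlap. The mannosidase MAN2B1 rose 1.9-fold, the proteases cathepsin D (CTSD) and cathepsin B (CTSB) 1.89-fold and 1.82-fold, and the fucosidase FUCA1 1.85-fold. The 1 fall was lost without senescent replicate 1 or 2 or any 1 of the young 3% arrays. Genes of class I antigen presentation rose in 6 of 19 cases (31.6%) and fell in none, with a median of 0.29. HLA-E rose 1.62-fold and HLA-B 1.49-fold, although the probe sets of this gene family may read more than 1 member. Of 42 interferon-stimulated genes 4 rose (9.52%, beside 5.2% of all genes) and none fell (beside 5.7%). TRIM22, an antiviral ubiquitin ligase, stood at 1.23, 1.35 and 1.28 in senescent and at -0.78, -0.87 and -0.99 in young cells, a 4.5-fold rise (adjusted p = 2.78e-08), and IFITM1 rose 2.19-fold.

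Pregnancy-specific glycoproteins, placental proteins of the immunoglobulin family, were higher in 8 of 9 cases (88.9%, beside 5.2% of all genes). Their list median, 0.72, was the highest of all. PSG7 rose 3.22-fold (1.69 ± 0.09), PSG4 3-fold and PSG1 1.82-fold. The list mean was 0.87, 0.93 and 0.90 on the senescent arrays, and every other array of the series lay at or below 0.20. The genes are near-identical neighbours, so the 8 calls may not be independent. Of 27 ribosomal protein genes, taken as a reference group, 1 rose and 1 fell (3.7% each way). The first call was lost without any 1 array but young 3% replicate 1 and the second without any 1 of the 6 arrays.

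**Figure D3:**
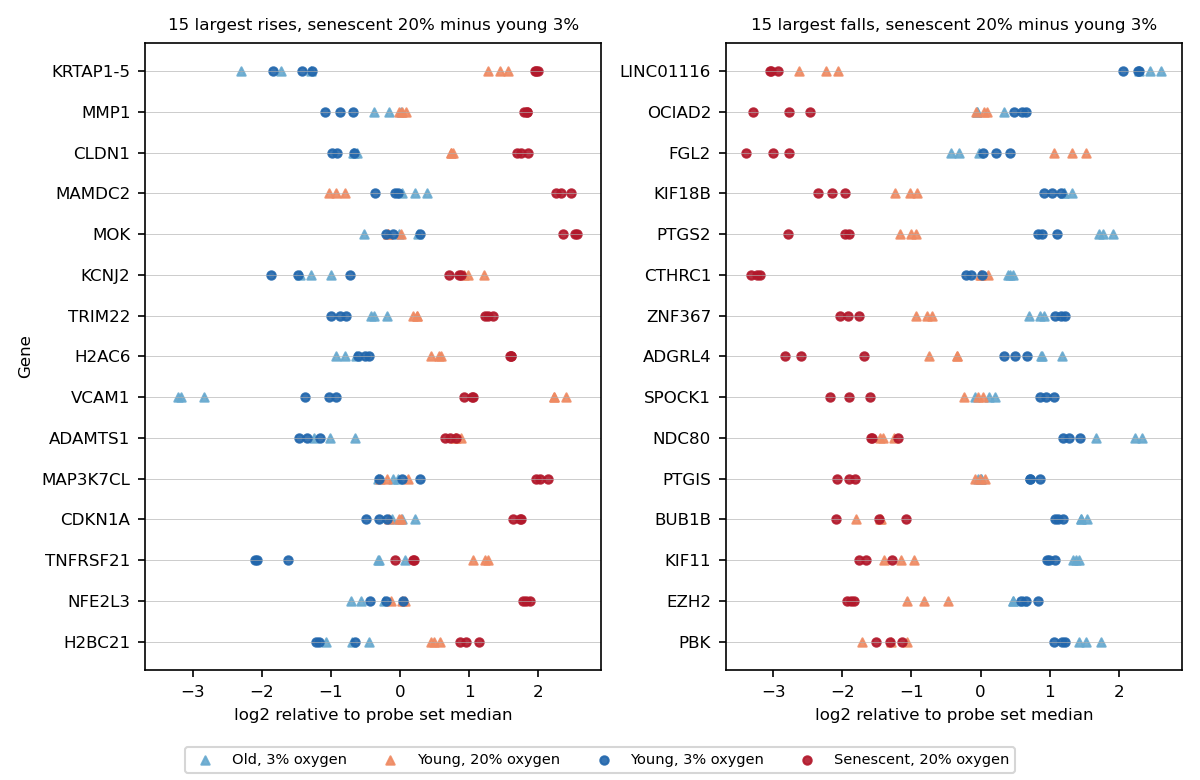
Values of the 15 genes with the largest rise (left) and the 15 with the largest fall (right) on all 12 arrays, in log2 relative to the probe set median; circles are the senescent (red) and young 3% arrays (blue) compared here, triangles the young 20% and old 3% arrays. LINC01116 falls from values above 2.0 on all 3% arrays to below -2.0 on all 20% arrays, whereas CTHRC1 and OCIAD2 are low on the senescent arrays alone.

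The single genes with the largest changes fell into different patterns over the 4 groups. LINC01116, a long noncoding RNA, stood at -3.03, -2.93 and -3.04 in senescent cells and at 2.30, 2.06 and 2.28 in young 3% cells, a 37.1-fold difference (adjusted p = 7.8e-10). The young 20% arrays read -2.62, -2.23 and -2.06 and the old 3% arrays 2.46, 2.29 and 2.62, so it split all 12 arrays by oxygen level. KRTAP1-5, a keratin-associated protein of hair, rose 11.1-fold and was split in the same way, at 1.96, 1.99 and 1.95 in senescent, 1.45, 1.27 and 1.56 in young 20%, -1.41, -1.84 and -1.27 in young 3%, and -1.28, -1.72 and -2.30 in old 3% cells. Neither kind of array overlapped the other.

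Other genes set the senescent arrays apart from all 9 others. OCIAD2, a mitochondrial protein, stood at -3.29, -2.77 and -2.46 in senescent cells, and no other array was below -0.06; it was 10.7-fold lower than in young 3% cells. FGL2, a fibrinogen-like protein, was 9.73-fold lower, at -2.78, -3.39 and -3.00 against 0.04, 0.22 and 0.43, with probe sets at -2.14 and -4.42. On the rising side, MAMDC2, a secreted proteoglycan, stood at 2.47, 2.33 and 2.26 in senescent cells and at 0.39 or below on every other array, a 5.67-fold rise over young 3% cells. MOK, a kinase of the MAP kinase superfamily, stood at 2.56, 2.54 and 2.36, against a highest value of 0.30 elsewhere. The transcription factor NFE2L3 rose 4.08-fold and MAP3K7CL 4.12-fold, both with all senescent arrays above all others. The tight junction protein CLDN1 rose 6.15-fold and lay in between, with young 20% arrays at 0.74, 0.74 and 0.76 below the senescent range of 1.70 to 1.86 and above the young 3% range of -0.98 to -0.67.

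**Figure D4:**
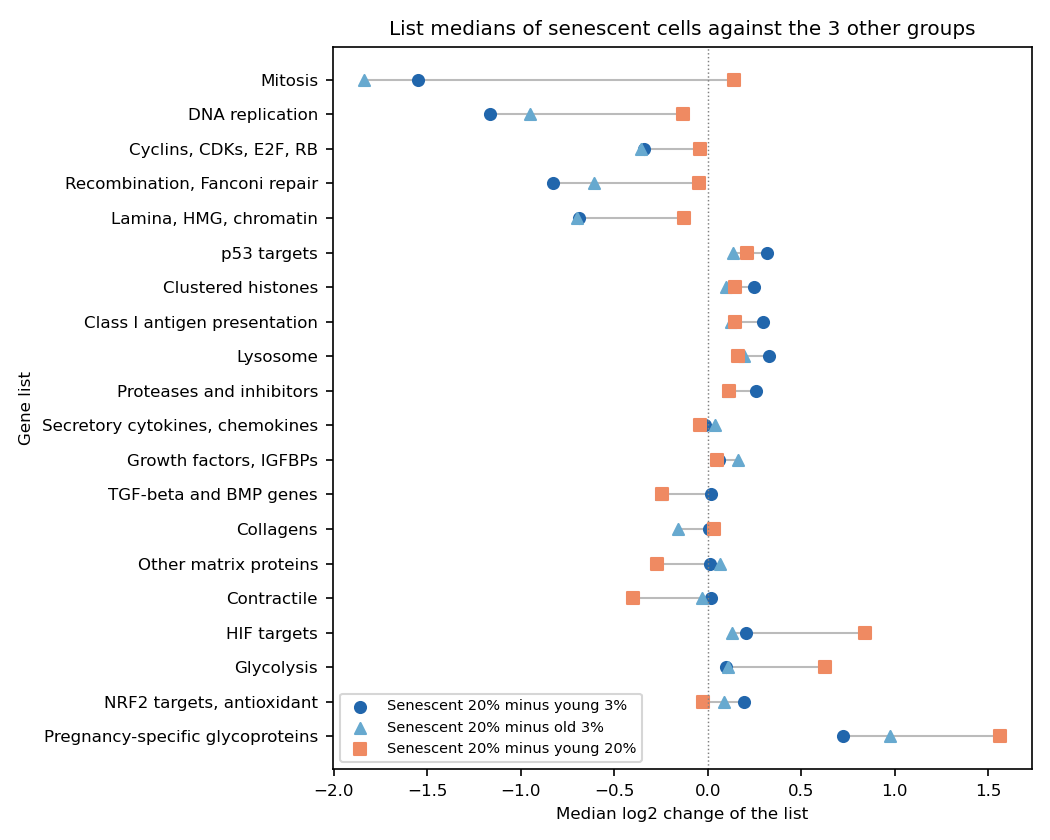
Median log2 change of 20 gene lists in senescent cells against young 3% cells (blue circles), old 3% cells (light blue triangles) and young 20% cells (orange squares); the 3 comparisons share the senescent arrays, and the dotted line is 0. The mitosis median is -1.55 against young 3% cells, -1.84 against old 3% cells and 0.14 against young 20% cells, and the HIF target median is 0.20, 0.13 and 0.84.

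What the choice of the young 3% cells as reference contributes can be read from the same senescent arrays set against the other groups. The comparisons share arrays, so only their own values are given side by side. Against young cells at 20% oxygen 923 genes were called higher (4.67%) and 1551 lower (7.84%), and against old cells at 3% oxygen 872 higher (4.41%) and 1304 lower (6.59%). Of the 68 mitosis genes 0 were higher and 62 lower against young 3% cells, 0 and 65 against old 3% cells, and 9 and 2 against young 20% cells. The test of the difference between the first and the last is the contrast of young 20% minus young 3% cells, in which 1353 genes were called higher (6.84%) and 980 lower (4.96%). In it 60 of the mitosis genes were lower and none higher, with a list median of -1.67. KIF11, for example, was 0.40 ± 0.13 lower in senescent than in young 20% cells without being called (adjusted p = 0.0756), while the young 20% cells were already 2.18 ± 0.13 below the young 3% cells. For replication the list medians were -1.17 against young 3%, -0.95 against old 3% and -0.13 against young 20% cells. MCM6 was called lower against all 3 references, by 1.88, 1.09 and 1.09 on the log2 scale. CDKN1A was called higher against all 3, by 2.04, 1.67 and 1.76, and the difference between young 20% and young 3% cells in this gene was not called (0.27, adjusted p = 0.152).

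Old cells at 3% oxygen had passed more doublings than the senescent cells, 53 against 48. Between old and young cells at 3% oxygen 194 genes were called higher (0.981%) and 150 lower (0.759%), and of the 68 mitosis genes 7 were higher and none lower. IL6, lower in senescent cells by 1.06, 1.31 and 1.32 against young 3%, young 20% and old 3% cells, was called against each. IL1B changed by -1.90 against young 3% and by -2.99 against old 3% cells, but by -0.22 (adjusted p = 0.599) against young 20% cells. HIF targets were higher in 9 of 44 cases against young 3% cells and in 33 of 44 against young 20% cells, with 28 of 44 called lower in young 20% than in young 3% cells. The glycoprotein list was higher against every reference, in 8 of 9 cases each, with medians of 0.72, 0.98 and 1.56 against young 3%, old 3% and young 20% cells.

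**Figure D5:**
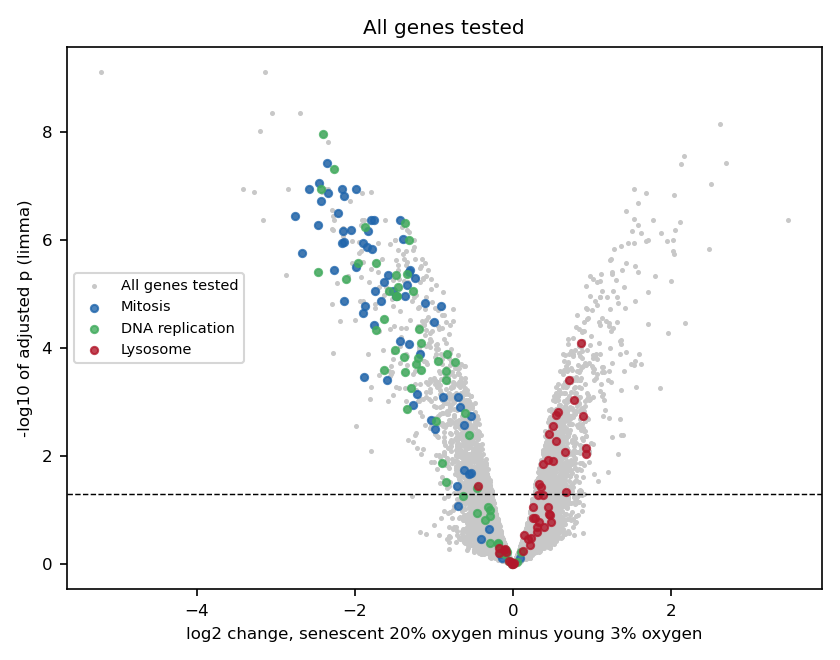
Log2 change (senescent 20% minus young 3% oxygen, horizontal axis) against -log10 of the adjusted p (limma, vertical axis) for the 19775 genes, with mitosis, DNA replication and lysosome genes coloured; the dashed line is the threshold of 0.05. Of the mitosis genes 62 and of the replication genes 41 lie above the line on the left, and 18 lysosome genes above it on the right.

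Of 12 fibroblast markers 4 were called (33.3%, beside 10.9% of all genes): PDGFRB and THY1 (1.58-fold) rose and COL3A1 and VIM fell, with a list median of 0.07. The VIM call was lost without senescent replicate 2 (adjusted p = 0.0859), young 3% replicate 2 (0.0505) or young 3% replicate 3 (0.0573), and without young 3% replicate 1 there were 4 fibroblast markers called higher. None of 11 transcription factors of the lung mesenchyme was called, none of 10 endothelial and none of 10 immune markers, beside 10.9% of all genes. Of 13 epithelial markers 1 was called (7.69%), the keratin KRT19 (1.86-fold higher). Of 9 pericyte and smooth muscle markers 1 was called (11.1%), the receptor NOTCH3 (1.4-fold higher), which became 2 without young 3% replicate 1. Of 14 markers of fat, cartilage and bone 1 was called (7.14%), SOX9. These last 3 shares lie near the 10.9% of all genes. Of 9 mesothelial and neural markers 2 were called (22.2%), NES higher and TUBB3 lower. SOX9 lost its call without any 1 of the senescent arrays or young 3% replicate 2 (adjusted p from 0.0564 to 0.108), and NES without senescent replicate 1 or 2 or young 3% replicate 1 (adjusted p from 0.0507 to 0.0876); without young 3% replicate 2 there were 2 mesothelial and neural markers called higher.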

How the data were processed

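The authors deposited 1 table of RMA values (per the submitters' processing notes, version not stated) for 54675 probe sets on 12 arrays. The values are taken as log2, since RMA gives log2, and the deposited values are centred, with the median of each probe set at 0 (to within 1e-06), so signal over background is unknown. Probe sets naming 1 gene (41091; 1801 name several and 11721 none, and 62 are controls) were matched by Entrez identifier to RefSeq symbols (41037 matched) and averaged per gene, giving 19775 genes, 10523 of them from several probe sets.

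One model with a mean for each of the 4 groups was fitted in limma (version 3.58.1, under R 4.3.3), two-sided, with Benjamini-Hochberg adjustment over all genes. On simulated data with 19775 genes and noise independent between genes, 50, 100 and 50 genes were changed by 0.5, 1 and 2 (log2). The fit recovered 40%, 89% and 98% of them, with 8 false calls. The simulation held fewer changed genes than were called here and no deviations shared across genes, so these rates need not hold for the real arrays. Lists were described by counts and medians, without a set test, and some genes are on several lists. The members and the 40 lists were chosen with earlier results of these data known. Named genes are the 15 largest rises and falls with groups that do not overlap, up to 6 members per list with the largest change, a panel of 38 genes (35 measured; the others are not analysed here), genes with opposite calls against the 2 young groups, and members with printed promoters; PLK1, TNFAIP6, STC1, TIMP1, TIMP3, TGFB2, SMAD7, BMP2 and HMGA2 were added after their values were seen. Deviations of same-numbered senescent and young 3% replicates had no common sign (correlations of 0.327, 0.223 and -0.591), so they were not paired. Differently numbered ones correlated at -0.574 to 0.541. Some arrays of the 2 groups thus shared deviations across genes, which the fit does not model and whose cause was not tested. Alternatives were other fits, probe set choices, scalings, array weights, thresholds, a filter on flat genes and leaving out each of the 6 arrays of the comparison (no young 20% or old 3% array was left out). No 2 arrays were identical, but some differed less from an array of another group than from a replicate. Senescent replicate 3 had an SD of difference of 0.376 from young 3% replicate 2 and 0.395 from senescent replicate 2. Young 3% replicate 1 had 0.367 from old 3% replicate 3, and 0.416 and 0.381 from young 3% replicates 2 and 3.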

Additional observations from a re-analysis of the deposited data

Results flagged for a closer look

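When senescent cells were set against the 2 young groups, 109 of the 19775 genes were called in opposite directions. Of these, 43 were lower than in young 3% cells and 66 higher. The young 20% minus young 3% contrast tests that difference, and the 5 genes with the largest difference each way are given. Lower than in young 3% cells but higher than in young 20% cells were NUF2 (young 20% minus young 3%, -2.91), KIF20A (-2.90), CDKN3 (-2.74), DLGAP5 (-2.67) and DDIT4 (-2.66). The first 4 belong to the mitotic programme or are expressed with it, and DDIT4 is a HIF target. KIF20A, a kinesin of cytokinesis, stood at -1.07, -1.14 and -0.95 in senescent, -2.09, -1.48 and -1.88 in young 20% and 0.95, 1.32 and 0.97 in young 3% cells, and the 3 groups did not overlap. Higher than in young 3% cells but lower than in young 20% cells were CYTL1 (young 20% minus young 3%, 4.05), PTX3 (3.51), VCAM1 (3.40), TNFRSF21 (3.12) and OLFML2A (3.10). VCAM1, an adhesion molecule for leukocytes, stood at 0.93, 1.06 and 1.04 in senescent, 2.23, 2.23 and 2.41 in young 20% and -1.37, -1.03 and -0.93 in young 3% cells, with the old 3% arrays lower still (-2.83, -3.16 and -3.21).

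Probe sets that name no gene were tested apart, and 256 of 11721 were called (2.18%), 83 higher and 173 lower; of 1801 that name several genes 123 were called (6.83%). The largest changes were those of 242560_at (-3.21) and 1555968_a_at (-2.84), which fell, and 226197_at (2.66) and 226192_at (2.60), which rose. For 1555968_a_at, 226197_at and 226192_at the senescent arrays stood apart from all 9 others.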

How the results depend on the processing

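Of 283 genes followed, 207 were called, and 181 of these stayed called in every other fit at an adjusted p under 0.05 that gave them a value (the filter on flat genes kept 262 of the 283); stricter thresholds and single probe sets were run on counts only. No followed gene that was called in the main or the other fit changed sign. Genes called in neither could change sign, as NQO1 did (-0.134 to 0.109 when 1 array was left out). Leaving out 1 of the 6 arrays compared gave 1462 to 2124 genes called in place of 2157, 638 to 933 higher (main 1029) and 807 to 1218 lower (main 1128); list members called ranged from 318 to 348 (main 375). For the side comparisons, without leaving out young 20% or old 3% arrays, the ranges were 1872 to 2567 (senescent minus young 20%, main 2474), 1612 to 2261 (senescent minus old 3%, 2176), 1922 to 2283 (young 20% minus young 3%, 2333) and 227 to 322 (old 3% minus young 3%, 344). Fitting the 2 groups alone gave 1514 genes and array weights 3178 (1664 higher), with 6203 and 4137 for senescent minus young 20% and minus old 3%. Testing 41091 probe sets singly gave 4020 calls (1927 higher, 2093 lower) and, in the order of the side comparisons above, 4678, 3938, 4316 and 527. A minimum change of 1 on the log2 scale left 409 (127 higher, 282 lower) and 372, 470, 459 and 80. An adjusted p under 0.01 left 1258 (564 higher, 694 lower) and 1477, 1305, 1412 and 162. The replicate number as a block gave 1995 calls (944 higher, 1051 lower). Quantile normalization and centring of array medians moved the median of all genes from 0.05 to 0.01 and 0.02, and under both the medians of the collagen, other matrix, contractile, TGF-beta and unfolded protein response lists lay at or below 0. With the probe set of largest SD the contractile median was -0.18 (main 0.02) and the collagen median -0.11 (main 0.01), and the endothelial marker median was -0.01 (main 0.05) with quantile normalization or array weights. Also of opposite sign were the medians of the pericyte and smooth muscle markers with the probe set of largest SD (-0.0011, main 0.07) and of the mesothelial and neural markers with array weights (-0.0491, main 0.13); the cause was not tested. List medians this near 0 carry no direction. Signal over background cannot be read from centred values, so a filter on dim probe sets was not run.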

Other observations

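Some of the genes with the largest changes belong to none of the lists. ADGRL4, an adhesion receptor of vessels, stood at -2.60, -2.83 and -1.69 in senescent and at 0.67, 0.50 and 0.34 in young 3% cells (7.34-fold lower), and SPOCK1, a testican of the matrix, at -1.60, -2.18 and -1.91 against 1.07, 0.85 and 0.94 (7.2-fold lower). ZNF367, a zinc finger factor, was 8.32-fold lower. KCNJ2, an inward rectifier potassium channel, was 4.51-fold higher and did not differ by call between senescent and young 20% cells (-0.22, adjusted p = 0.704).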
